A study of Mus musculus with 2 samples.

Results

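Resting Pax7-positive cells were examined within a culture of induced myogenic progenitor cells (iMPC). They numbered 486 of 9349 filtered iMPC cells, or 5.20% (exact binomial 95% interval 4.76 to 5.67%), and 486 of 15362 filtered cells in the whole series. The cells were chosen by measured UMI counts. A cell was included when it held just over 8000 unique molecular identifiers (UMIs, 1 per captured RNA molecule) or more, at least 500 genes and at most 20% mitochondrial UMIs. It also had to hold at least 2 UMIs of Pax7, at most 1 of Myog, at most 1 of Dcn, and 0 of Top2a and Mki67. The summed UMIs of 6 S-phase genes (Mcm5, Cdc6, Ccne2, Hells, Ung and Chaf1b) could not exceed 3, and those of 5 G2/M genes (Aspm, Cenpf, Nusap1, Kif23 and Cenpe) could not exceed 2. The Pax7 limit left 2587 cells, the Myog limit 1953 and the Dcn limit 1839, and the cell cycle limits brought these to 486, which is 26.4% of the 1839 (24.4 to 28.5%). The members were thus selected on the levels of these 16 genes, which are not results.

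The iMPC library came from cells made from mouse embryonic fibroblasts by MyoD+F/R/C treatment and kept in medium with F/R/C, and the second library (MEF) from such fibroblasts in MEF media. The MEF sample's protocol text is the same as that of iMPC, so its group follows its treatment label. Both carried the genotype Tg:Pax7-nGFP/C57BL6;DBA2, a Pax7 reporter transgene, and the series' design text names a stable iMPC clone, so 1 clone may stand behind all the cells. Each condition is 1 library of the 10x Genomics droplet assay, so no comparison has a replicate and no test was made. All intervals are exact 95% intervals for counting error only. The resting cells were set against the 8863 other iMPC cells and against 3 sets cut from them by the same limits. These were 1353 cycling Pax7-positive cells, which met the limits on Pax7, Myog and Dcn but failed a cell cycle limit. The others were 1731 non-cycling Myog-positive cells, with at least 2 UMIs of Myog, 0 of Pax7 and at most 1 of Dcn, and 319 non-cycling Dcn-positive cells, with at least 2 UMIs of Dcn, 0 of Pax7 and at most 1 of Myog.

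Satellite cells are the stem cells of skeletal muscle and lie between the fibre and its basement membrane. In adult muscle most of them are quiescent, hold the transcription factor Pax7, and depend on Notch signalling to stay undifferentiated. After injury they enter the cell cycle as Myod1-positive myoblasts, and their daughters either switch on Myog and fuse or return to quiescence.

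Resting cells were shallower than most, with a median of 15070 UMIs per cell against 21372 in the other iMPC cells, 22451 in cycling Pax7-positive cells, 28467 in Myog-positive cells and 16227 in Dcn-positive cells. Ribosomal protein genes held a median of 34.7% of UMIs in resting cells, against 30.5, 31.2, 27.2 and 26.7% in the same order. The limits of 0 UMIs admit shallow cells more readily. Levels are given as CPM, a gene's summed UMIs in a set scaled to 1 common total, and shares of cells after thinning every cell to 8000 UMIs. Scrublet marked 0 of the 486 cells as doublets and 3.80% of the other iMPC cells. The 2 libraries shared 16 barcodes among filtered cells, 2 of them resting cells. Of 5382 MEF cells past the same depth limit, 0 met the rule.

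The 6 genes proposed to mark these cells were Pax7 and 5 genes that the rule did not use. Apoe (chromosome 7, 19696109 to 19699188 on GRCm38), a lipid-carrying apolipoprotein, stood at 206 CPM in resting cells. Its level was 77.3 CPM in cycling Pax7-positive cells, 113 in Dcn-positive cells, 57.4 in all other iMPC cells and 10.6 in Myog-positive cells, so resting cells were the highest of these sets. Apoe was also high in cells that met every other limit but had less Pax7. It stood at 148 CPM in 789 such cells with 0 UMIs of Pax7 and at 223 CPM in 419 with 1. Heyl (chromosome 4, 123233556 to 123249875), a transcriptional repressor downstream of Notch, stood at 49.2 CPM against 41.6 in cycling, 12.2 in Dcn-positive and 1.85 in Myog-positive cells. Barx2 (chromosome 9, 31846044 to 31913462), a homeobox factor of muscle progenitors, stood at 32.6 CPM against 21.2, 1.42 and 1.76 in the same order. Cd28 (chromosome 1, 60716800 to 60773359), best known as a T-cell costimulatory receptor, stood at 28.9 CPM against 27, 1.06 and 1.52. Cxcr4 (chromosome 1, 128588199 to 128592293), the receptor of the chemokine Cxcl12, had only 61 UMIs in the 486 cells, or 7.90 CPM against 6.87 in cycling cells. In MEF the highest of the 5 was Apoe at 2.91 CPM.

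**Figure D1:**
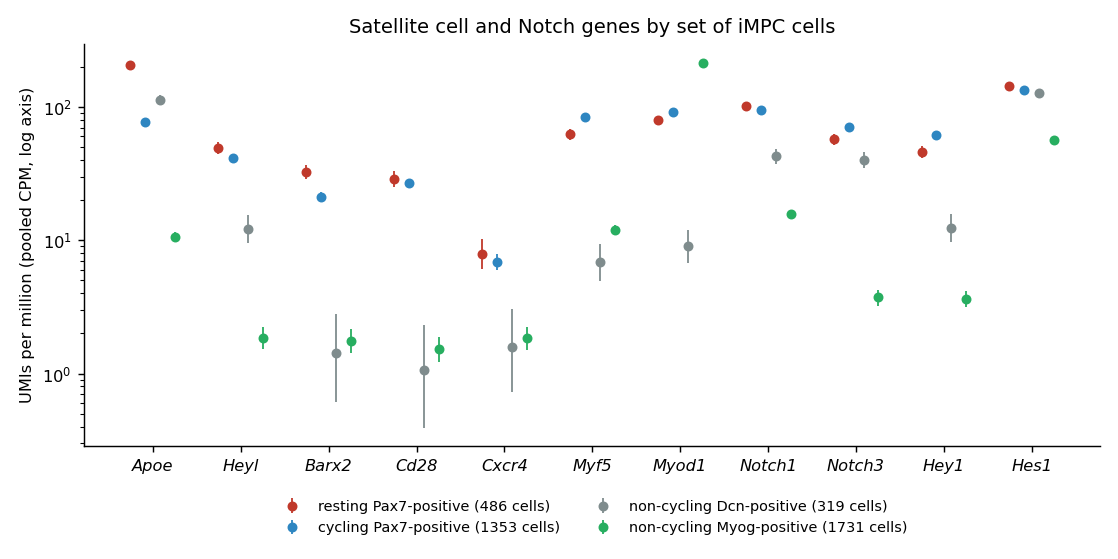
Pooled CPM (log axis) of 4 marker genes, Cxcr4, 2 myogenic factors and 4 Notch genes in the 4 sets of iMPC cells, with exact Poisson 95% intervals. Resting (red) and cycling (blue) Pax7-positive cells lie within 2-fold of each other for every gene but Apoe, at 206 and 77.3 CPM. Myog-positive (green) or Dcn-positive cells (grey) are lowest, and Myod1 is highest in Myog-positive cells at 212 CPM.

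Most of the markers were shared by both Pax7-positive sets. Against all other iMPC cells 4 of the 5 genes reached 10 CPM and all 4 were at least 2-fold higher, where 3.86% of 7859 genes were. The log2 ratios were 1.84 for Apoe (1.76 to 1.92), 1.58 for Barx2 (1.39 to 1.77), 1.36 for Heyl (1.20 to 1.51) and 1.25 for Cd28 (1.05 to 1.45). The Cd28 ratio was 0.82 once every cell was thinned to 8000 UMIs, and then no longer 2-fold. The 5 genes were chosen with earlier results of these data known, so these ratios describe the choice of markers and do not test it. Against cycling Pax7-positive cells 1 of the 4, Apoe, was 2-fold higher, where 3.89% of 7814 genes were. Its log2 ratio was 1.41 (1.32 to 1.5), and that of Cd28 was 0.09 (-0.12 to 0.31). Cell by cell the markers were sparse. After thinning, 49.4% of resting cells held a UMI of Apoe (44.9 to 53.9%), 29.2% of Heyl, 16.3% of Barx2, 13.4% of Cd28 and 6.38% of Cxcr4. In Myog-positive cells, which should lack them, the shares were 6.93, 2.31, 1.73, 1.62 and 2.60%, after thinning from a median of 28467 UMIs. In the same order they were 34.4, 27.4, 11.2, 15.9 and 5.03% in cycling Pax7-positive cells. Dcn-positive cells had 38.2, 8.15, 0.627, 0.627 and 0.940%. For Cxcr4 the share in all other iMPC cells was 4.37% (3.95 to 4.81%), which overlaps the interval of resting cells (4.37 to 8.93%). Without thinning the shares in resting cells were 60.7, 44.7, 22.0, 20.6 and 10.5%. No UMI of the 5 was seen in 24.7% of thinned resting cells, and 7.41% held 3 or more of them. Free RNA, as profiled in barcodes of 200 to 600 UMIs, would give a UMI of Apoe in 0.557% of cells.

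The cell cycle genes that the rule left unused were read next, as a check of the word resting. Against cycling Pax7-positive cells, all 20 G2/M genes on the list were at least 2-fold lower, with a median log2 ratio of -4.73, where 6.92% of all genes were. Plk1, a mitotic kinase, stood at 1.04 CPM against 65.8. Cdk1, the kinase that drives entry into mitosis, stood at 20.3 CPM against 310. Of 20 S-phase genes 16 were at least 2-fold lower, with a median of -1.62. Rrm2, a subunit of ribonucleotide reductase, stood at 8.93 CPM against 103, and Pcna, the DNA polymerase clamp, at 55.8 against 156. The 4 S-phase genes within 2-fold include the replication licensing genes Mcm4 (19 against 33.2 CPM), Mcm6 (34.6 against 59.3) and Cdt1 (19 against 27.1). These genes co-vary with those of the rule, so their direction follows largely from the choice of cells.

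The same genes read differently against the other non-cycling sets, which passed the same cell cycle limits in raw UMIs. Median depth was 15070 UMIs in resting, 28467 in Myog-positive and 16227 in Dcn-positive cells. In CPM the same limits are thus stricter for the deeper Myog-positive cells, and the part of depth in the differences was not tested. Of the 16 S-phase genes that reached 10 CPM, 14 were at least 2-fold higher in resting Pax7-positive cells than in Myog-positive cells, where 23.9% of 7875 genes were, and 0 were lower. Mcm3 stood at 21.9 CPM against 2.70, and Ccne1, which encodes cyclin E1, at 68.9 against 21.6. Against Dcn-positive cells 9 of 16 were at least 2-fold higher, where 5.07% of 7928 genes were. Ccne1 stood at 15.2 CPM there. Of 7 G2/M genes that reached 10 CPM, 6 were higher than in Myog-positive cells and 4 higher than in Dcn-positive cells, such as Ube2c at 60.8 CPM against 23.2 and 9.20. When both summed limits were set to 0 UMIs, 278 cells remained. The median log2 ratio of the S-phase list was then 1.67 against Myog-positive and 0.50 against Dcn-positive cells, in place of 2.09 and 1.12. That of the G2/M list was then 0.70 against Dcn-positive cells, in place of 1.24. Resting is therefore used below for the limits of the rule and for low mitotic transcripts, not for quiescence as in muscle.

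**Figure D2:**
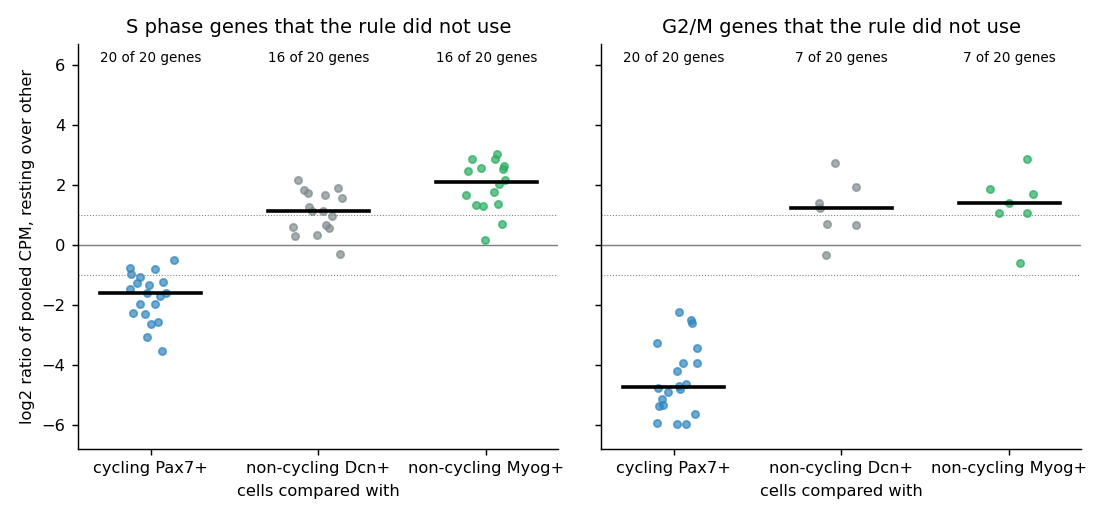
Each point is 1 S-phase (left) or G2/M (right) gene that the rule did not use, plotted by the log2 ratio of pooled CPM in resting Pax7-positive cells over the set named below. Bars are medians, dotted lines mark 2-fold, and only genes that reached 10 CPM in either set are shown. Medians are -1.62 and -4.73 against cycling cells, and 1.12 and 1.24 against Dcn-positive cells.

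Most genes that brake or license cell cycle entry were within 2-fold between the Pax7-positive sets. Cdkn1b, the Cdk inhibitor p27, stood at 78.8 CPM in resting and 71.1 in cycling cells, and Cdkn1c, the inhibitor p57, at 257 and 235. Cdkn1a, the inhibitor p21, was at 495 and 340 CPM, a log2 ratio of 0.54 (0.49 to 0.59). Both Cdkn1a and Cdkn1c were far higher in Myog-positive cells, at 1269 and 2475 CPM. Ccnd1, which encodes cyclin D1, stood at 265 CPM in resting, 232 in cycling, 130 in Dcn-positive and 46.3 in Myog-positive cells. Among the 21 genes of the list of Cdk inhibitors, D cyclins and pocket proteins, all 21 reached 10 CPM against cycling cells, with 2 at least 2-fold higher and 3 lower, where 3.89% of all genes were higher and 6.92% lower. The higher ones were Cdkn2b, an inhibitor of Cdk4 and Cdk6, at 104 CPM against 36.8, and Ccnd2, which encodes cyclin D2, at 148 against 64.8. The lower ones were Rbl1 (3.5 against 14.6 CPM), Cdkn2d (27.6 against 69.2) and Cdkn2c (14.1 against 28.4). Cdkn2a, the locus of p16 and p19Arf (chromosome 4, 89274471 to 89294653), was the most abundant inhibitor gene named here, at 1047 CPM in resting cells, 628 in cycling, 1395 in Dcn-positive, 310 in Myog-positive and 1027 in MEF cells.

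Notch receptors and targets were higher in both Pax7-positive sets than in Myog-positive cells, and within 2-fold between the Pax7-positive sets. The receptor genes Notch1 and Notch3 stood at 102 and 57.2 CPM in resting cells, 94.0 and 70.8 in cycling cells, 42.5 and 40.0 in Dcn-positive cells, and 15.8 and 3.72 in Myog-positive cells. The targets Hes1 and Hey1 stood at 144 and 46.2 CPM in resting, 135 and 61.7 in cycling and 56.0 and 3.62 in Myog-positive cells. Against cycling cells 0 of the 7 genes of the pathway that reached 10 CPM, of 19 on the list, passed 2-fold, and log2 ratios ran from -0.74 for Nrarp (-1.21 to -0.30) to 0.12 for Notch1. After thinning, 28.2% of resting cells held a UMI of Hey1 (24.2 to 32.4%) and 35.4% of Notch3 (31.1 to 39.8%), below the 37.5% (35.0 to 40.2%) and 42.9% (40.3 to 45.6%) of cycling cells beyond counting error. Against Myog-positive cells 5 of 8 were at least 2-fold higher, and 2 lower, where 23.9% of all genes were higher and 12.8% lower. The lower ones were the ligand genes Jag2 (3.37 CPM against 19.7) and Dll1 (6.21 against 13.8). Receptors and targets were thus higher in resting cells and these 2 ligands higher in Myog-positive cells.

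Among myogenic regulators, Myf5 stood at 62.1 CPM in resting and 84.6 in cycling Pax7-positive cells, a log2 ratio of -0.45 (-0.59 to -0.31), and at 12 CPM in Myog-positive cells. Myod1 stood at 79.1, 91.2 and 212 CPM in the same order, and transcripts of the MyoD used to make the cells may be among them. Msc, a repressor of the bHLH family, was the 1 progenitor factor of 7 measured that was 2-fold lower than in cycling cells, where 6.92% of all genes were. It stood at 20.6 CPM against 51.2. All 7 factors had log2 ratios below 0, with a median of -0.45 against -0.10 over all genes. In thinned resting cells 13.0% held both Myf5 and Myod1, 19.5% Myf5 only (16.1 to 23.4%), 23.9% Myod1 only (20.1 to 27.9%) and 43.6% neither. In cycling cells these shares were 16.2, 28.5 (26.1 to 31.0), 23.4 (21.1 to 25.7) and 31.9%, so the share with Myf5 only was lower in resting cells and the intervals of Myod1 only overlap. Pax3, the paralog of Pax7, had 1 UMI in the 486 cells.

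Several genes that mark quiescent satellite cells in muscle were near or at 0. Calcr, the calcitonin receptor, Chodl and Chrdl2 had 0 UMIs, and the surface marker Cd34 had 19 UMIs in 4 of the 486 cells. Its pooled 2.46 CPM, against 0.155 in cycling cells (log2 3.98, 2.52 to 5.76), thus describes few cells. With 7724273 UMIs in the set, a count of 0 allows up to 0.388 CPM (3 counts). Other surface genes were present in both Pax7-positive sets, among them Vcam1 at 47.1 and 41.6 CPM, Itga7 at 93.1 and 82.4, Sdc4 at 278 and 209, and Cdh15, which encodes M-cadherin, at 165 and 207. Of the 24 surface and quiescence genes 19 reached 10 CPM against cycling cells, with 2 at least 2-fold higher and 0 lower, against the same 3.89 and 6.92% of all genes. These were Sdc3, which encodes syndecan-3, at 53.2 CPM against 18.5, and the tetraspanin gene Cd9 at 275 against 117. Spry1, an inhibitor of FGF signalling tied to satellite cell quiescence, stood at 34.6 against 18.9 CPM, a log2 ratio of 0.87 (0.66 to 1.08).

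Contractile and fusion genes were low. Of 25 sarcomere genes 24 were at least 2-fold lower than in all other iMPC cells, where 8.79% of genes were, and the list summed to 2747 CPM in resting cells, 3084 in cycling Pax7-positive cells and 1994 in Dcn-positive cells, against 83799 in Myog-positive cells. Barcodes of 200 to 600 UMIs held 55947 CPM of them and MEF 111. These barcodes hold a median of 430 UMIs, which is 2.85% of the median of a resting cell, and the part of free RNA in the low sarcomere counts was not tested. Mymk, which encodes the fusion protein myomaker, stood at 11.4 CPM against 551 in Myog-positive cells. Both the rule and the Myog-positive set were cut by Myog. The direction of muscle genes that co-vary with Myog thus follows largely from the choice of cells. Against cycling cells 2 of 17 measured sarcomere genes were at least 2-fold lower, such as Ttn at 71.2 CPM against 158, and 0 higher, where 6.92% of all genes were lower.

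Among all genes outside the rule that reached 50 CPM in the higher set, 104 of 2820 (3.69%) were at least 2-fold higher in resting cells than in all other iMPC cells, and 237 (8.4%) at least 2-fold lower. The higher count rests on how cells are weighted. With each cell thinned to 8000 UMIs it was 22, and when every cell weighed the same 24. With mitochondrial and ribosomal protein genes left out of the totals, 217 genes were higher and 295 lower. The 12 leading genes stayed at least 2-fold higher under every other setting run. They were led by Rgs5, a regulator of G-protein signalling known from pericytes (65.9 CPM against 16.8, log2 1.97, 1.83 to 2.10), and Scg2, which encodes secretogranin II of secretory granules (73.4 against 20.1, log2 1.87, 1.74 to 1.99). Apoe came next. Rgs17, the small GTPase gene Gem, the aryl hydrocarbon receptor gene Ahr, the repressor gene Id4, the glutathione transferase gene Mgst1, the matrix gene Ecm1, Sdc3, the guidance gene Slit2 and the protease inhibitor gene Serpine2 followed, with log2 ratios from 1.72 to 1.49. The lower 12 were mostly muscle structure genes, among them Lmod2, Myh1 and Casq2, and 2 histone genes, Hist1h1b and Hist1h2ap, with log2 ratios from -5.15 to -4.46. Histone and myosin genes have close copies between which reads can be split.

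Apart from Apoe, which had a log2 ratio of 0.86 over Dcn-positive cells (0.73 to 1.0), the leading genes were about as high or higher in Dcn-positive cells. Rgs5 stood at 65.9 CPM in resting cells, 64.1 in Dcn-positive cells, 19.2 in cycling Pax7-positive cells and 3.74 in Myog-positive cells. Scg2 stood at 73.4, 68.7, 17 and 1.45 CPM in that order, and Ahr at 73.0, 60.4, 22.7 and 5.38. Log2 ratios of resting over Dcn-positive cells were 0.04 for Rgs5 (-0.16 to 0.24), 0.10 for Scg2 (-0.09 to 0.29), 0.09 for Rgs17 (-0.06 to 0.25) and -0.17 for Id4 (-0.37 to 0.04), and these 4 intervals include 0. Gem and Ahr were slightly above them, at 0.23 (0.04 to 0.42) and 0.27 (0.08 to 0.47). In MEF 3 of these genes were scarce, at 0.720 CPM for Rgs5, 0.152 for Scg2 and 0.373 for Ahr. Pericyte markers as a list did not follow Rgs5. Of 11, 8 reached 10 CPM against the other iMPC cells, Rgs5 was the 1 that was 2-fold higher and Acta2 the 1 that was 2-fold lower, and the list summed to 1124 CPM in resting cells, 1187 in cycling and 1267 in Dcn-positive cells.

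Against cycling Pax7-positive cells, 91 of 2881 genes that reached 50 CPM (3.16%) were at least 2-fold higher in resting cells and 207 (7.19%) lower. Scaled by the median of gene ratios, 123 were higher and 169 lower. The 8 leading higher genes were Cck, which encodes the peptide hormone cholecystokinin (210 CPM against 21.4), Areg, which encodes the EGF receptor ligand amphiregulin (254 against 50.1), Gsta4, a glutathione transferase gene (82.2 against 16.3), Id4 (55.8 against 11.6), Scg2 (73.4 against 17), Nqo1, a quinone reductase gene (93.1 against 24.4), Spp1, which encodes the secreted phosphoprotein osteopontin (4032 against 1057), and Serpine2 (318 against 85.2). Their log2 ratios ran from 3.30 for Cck (3.17 to 3.43) to 1.90 for Serpine2 (1.82 to 1.98). The 8 leading lower genes were histone genes and genes of mitosis, from Hist1h1b at 1.81 CPM against 140 to Hist1h2ap at 5.18 against 261.

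In 6 of these 8 genes the Dcn-positive cells were higher still. Cck stood at 1335 CPM there, Areg at 1392, Gsta4 at 312, Nqo1 at 227, Spp1 at 13795 and Serpine2 at 759. In pooled CPM the resting cells thus lay between cycling Pax7-positive and Dcn-positive cells for these genes. They also lay above Myog-positive cells, where Spp1 stood at 264 CPM and Areg at 13.5. For some genes the pooled level describes few cells. After thinning, the top 49 resting cells held 99.7% of Cck, 95.7% of Gsta4, 77.1% of Areg and 48.6% of Spp1 UMIs.

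Nqo1, Gsta4, Mgst1, Fth1 and Ftl1 encode enzymes and ferritin chains of the antioxidant response, which the factor Nrf2 can drive through the antioxidant response element. Since Nqo1, Gsta4 and Mgst1 were among the leading genes, the 250 bases before each RefSeq start (GRCm38.p6) were searched on both strands for the letters TGACNNNGC. Of the 5 genes 4 had windows, 6 in all, and 1 of the 6 held the motif, where 3338 of 32851 windows (10.2%) did. The windows of Mgst1, with the match in capitals (on the reverse strand, from position -56), and of Nqo1, without a match, are shown 5′ to 3′ because these genes lead the comparisons above. A match describes letters only. Sequence beyond these 250 bases was not searched, so a window without a match does not show that the gene lacks the element.
Mgst1 (chr6:138140277-138140526, plus strand): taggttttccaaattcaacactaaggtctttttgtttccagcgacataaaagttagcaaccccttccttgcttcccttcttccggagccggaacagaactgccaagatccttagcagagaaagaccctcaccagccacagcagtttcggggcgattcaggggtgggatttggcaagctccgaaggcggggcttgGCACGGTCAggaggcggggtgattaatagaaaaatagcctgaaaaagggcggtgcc
Nqo1 (chr8:107403206-107403455, minus strand): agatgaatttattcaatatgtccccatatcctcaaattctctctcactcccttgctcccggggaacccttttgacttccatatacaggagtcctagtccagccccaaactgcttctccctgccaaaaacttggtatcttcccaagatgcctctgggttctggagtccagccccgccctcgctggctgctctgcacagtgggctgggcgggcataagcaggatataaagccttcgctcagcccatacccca

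Several genes of the basement membrane and niche matrix showed the same order. Of 21 on the list 20 reached 10 CPM against cycling cells, with 7 at least 2-fold higher, where 3.89% of all genes were, and 0 lower, and a median log2 ratio of 0.67 against -0.10 over all genes. Col6a1 and Col6a2, chains of the collagen VI that supports satellite cells, stood at 548 and 224 CPM in resting cells, 176 and 65.1 in cycling cells and 1797 and 917 in Dcn-positive cells. Fn1, which encodes fibronectin, stood at 524, 216 and 1312 CPM, and Nid1, which encodes the basement membrane linker nidogen, at 179, 62.1 and 1003. Nid2 and Lama5 went the other way, with log2 ratios of -0.23 (-0.38 to -0.08) and -0.20 (-0.53 to 0.12) against cycling cells. Against Dcn-positive cells 14 of 21 matrix genes were at least 2-fold lower, where 10.4% of all genes were. The 4 above 0 were Lama2, Hspg2, Nid2 and Lama5, and Lama5, at 12.6 against 2.83 CPM, was the 1 at least 2-fold higher. Fibroblast markers moved with the matrix genes. Of 12, 9 reached 10 CPM against cycling cells, with all 9 above 0 and 3 at least 2-fold higher (Fbn1, Lox and Col3a1), where 3.89% of all genes were, and the list summed to 2272 CPM in resting cells, 1319 in cycling, 6135 in Dcn-positive and 6998 in MEF cells. Single markers differed in their levels against Dcn-positive cells, from Lum with 1 UMI in resting cells against 160 CPM, and Col1a1 at 25.5 against 793 CPM, to Fap at 111 against 92.4 CPM. The part of fibroblast RNA in the matrix result was not tested.

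Smaller groups held few genes past 2-fold against cycling cells, where 3.89% of all genes were higher, and counts of 1 in lists this small say little beside that share. Of 7 genes of Id and E proteins, which restrain or partner myogenic bHLH factors, Id4 was the 1 past 2-fold against cycling cells, while Id3 stood at 740 CPM against 970. Of 5 measured chemokine and immune genes 2 were higher, Ccl2 and Ccl7, with log2 ratios of 1.05 and 1.42. Of 17 immediate early genes, all measured, 2 were 2-fold higher than in cycling cells and 0 lower. They were Egr2 (14.0 CPM against 6.68) and Ier3, with log2 ratios of 1.07 and 1.02, while Fos stood at 79.6 against 78.0. Of the 17 genes 16 were above 0, with a median log2 ratio of 0.44 against -0.10 over all genes. Fgfr1 was the 1 of 10 measured FGF genes past 2-fold (127 against 57.0 CPM), and Fgfr4 had a log2 ratio of -0.45. Igfbp6 was the 1 of 9 measured IGF genes past 2-fold (20.1 against 8.70 CPM), and Igf2 stood at 30.7 against 30.2. H19 of that list was not used here. Lrp1, a receptor of apolipoprotein E, was the 1 of 12 cholesterol and lipoprotein genes past 2-fold (154 against 43.6 CPM). Endothelial, immune and epithelial markers were scarce. Endothelial markers summed to 0.518 CPM with 6 of 7 at 0 UMIs, among them Cdh5 and Kdr. Immune markers summed to 1.94 CPM with 4 of 8 at 0, among them Ptprc, and epithelial markers to 0.129 CPM with 5 of 6 at 0. Neuron markers summed to 211 CPM, nearly all of it Stmn2 (141 CPM) and Tubb3 (48.2 CPM), with Elavl3 and Rbfox3 at 0, and to 302 CPM in cycling cells.

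**Figure D3:**
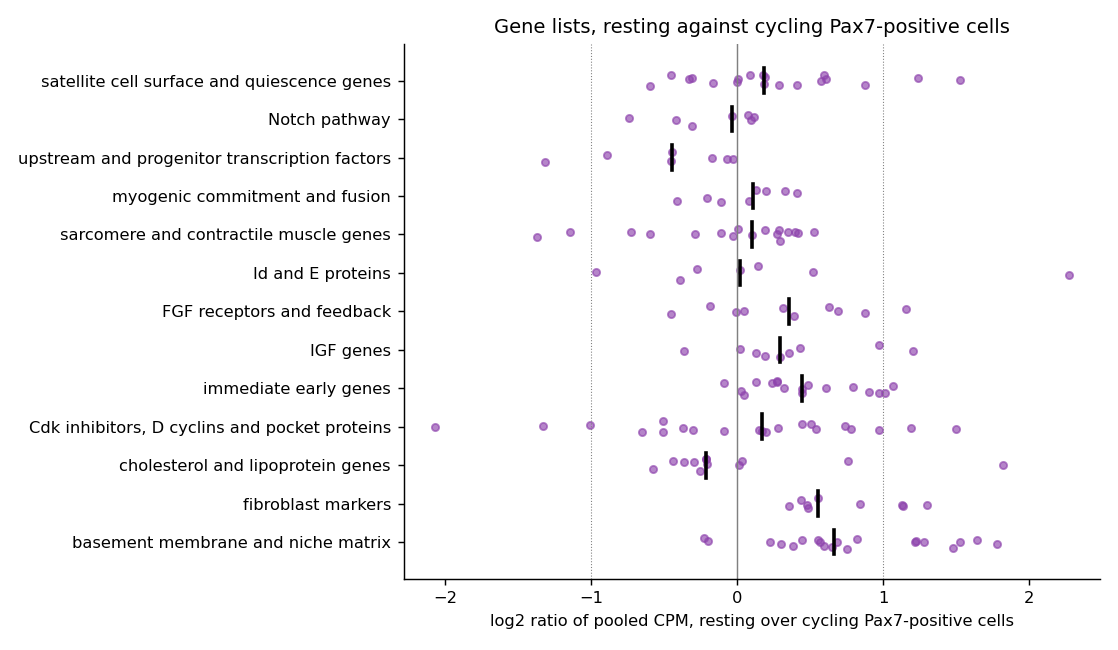
Each point is 1 gene of a list that reached 10 CPM in either set, plotted by the log2 ratio of pooled CPM in resting over cycling Pax7-positive cells, with bars at list medians and dotted lines at 2-fold. The matrix list has its median at 0.67 and 7 genes past 2-fold, the Notch list has its median at -0.03 and 0 genes past 2-fold, and the single Id gene at the far right is Id4.

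Against non-cycling Myog-positive cells the differences were wide. Of 2967 genes that reached 50 CPM, 586 (19.8%) were at least 2-fold higher in resting cells and 488 (16.4%) lower, and the median log2 ratio of all genes from 10 CPM was 0.31. Without mitochondrial and ribosomal protein genes in the totals 1059 were higher and 555 lower, and scaled by the median of gene ratios 512 were higher and 553 lower, so which direction held more genes turned with the scaling. The leading higher genes were Scg2 (73.4 CPM against 1.45), the chemokine gene Cxcl14 (52.0 against 1.62), Fap, which encodes fibroblast activation protein (111 against 4.18), Rgs17, Pde1a, the chromatin gene Hmga2 (192 against 8.68), Slit2 and Camk2n1. The leading lower genes included Lmod2, Trim63, Myh1, Tspan33, Xirp2, Tmem182 and Lmod3, at 0.647 to 6.47 CPM in resting cells.

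Against non-cycling Dcn-positive cells the leading higher genes included several known from muscle progenitors. Of 2931 genes, 114 (3.89%) were at least 2-fold higher and 330 (11.3%) lower, against 240 and 353 without mitochondrial and ribosomal protein genes in the totals. The leading higher genes were Cdh15 (165 CPM against 7.26), the muscle FGF receptor gene Fgfr4 (81.6 against 4.07), the imprinted gene Mest (248 against 13.6), Ank1 (59.3 against 5.49), St3gal5, Capn6 (140 against 13.6), Nnat (79.0 against 8.67) and Myf5 (62.1 against 6.90). Of 16 progenitor transcription factors 7 were measured and 6 were at least 2-fold higher, where 5.07% of genes from 10 CPM were. The leading lower genes were Lum, the matrix protease gene Mmp3 (0.647 against 351 CPM), the prolactin family genes Prl2c2 and Prl2c3, the chemokine gene Ccl5 (5.96 against 194), Slpi, Col1a1 and Crabp1 (122 against 3281). Prl2c2 and Prl2c3 are close copies, so their separate levels are uncertain. The Dcn limit lies within the rule, so the direction of matrix genes that co-vary with Dcn follows partly from the choice of cells. The Dcn-positive and Myog-positive sets were also cut by Pax7, in the opposite direction to resting cells. In both comparisons the direction of genes that co-vary with Pax7 thus follows partly from the choice of cells. The count of progenitor factors beside the 5.07% therefore describes these sets and does not test a difference.

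The resting cells were not uniform. After thinning, the variance of a gene's UMIs over cells was a median of 1.08 times its mean over 6306 genes, close to counting noise. It was 81.4 times the mean for Spp1 (chromosome 5, 104435118 to 104441050), 80.0 for Cck, 35.8 for Fth1, 18.5 for S100a6 and 17.1 for Areg. Crabp1, Mef2c, Gal, Fabp5, Ftl1, Tpt1 and Gsta4 completed the 12 highest. Spp1 ran from 0 to 505 UMIs per thinned cell with a median of 10.0, and the top 49 cells held 48.6% of its UMIs. The cells were therefore ordered by Spp1 and cut into 4 bins of 122, 122, 121 and 121 cells. This cut was chosen after the values were seen, and it is a range over 1 gene and not a set of types. Before thinning, the bins had a median of 13854, 14775, 16786 and 16737 UMIs per cell.

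A broad set of genes ran with Spp1. Among 6306 genes, for which the median correlation over the 486 cells was 0.01, the highest were Fth1, the ferritin heavy chain gene (r = 0.69), the calcium-binding protein gene S100a6 (0.66), Fn1 (0.66), Ecm1, Esd, Col6a1, Hmga2, Cd9, Col18a1, Timp1, Areg and Col6a2. Fth1 stood at 2140, 3064, 4730 and 9618 CPM from the lowest to the highest bin, and Fn1 at 165, 291, 553 and 1035 CPM. Nqo1 stood at 15.4, 7.17, 69.2 and 263 CPM, and Areg at 15.4, 16.4, 160 and 761 CPM, so both lay mostly in the upper bins. Cdkn1a, at 285, 341, 506 and 837 CPM, also went up. Fth1 and Ftl1 have processed copies in the genome, so reads can be split among them.

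The genes at the other end were led by Mest (r = -0.62), Capn6, Npm1, Plagl1, Nrk, Gpc3, Fabp5, Cdkn1c, Hsp90ab1, Ccnd3, Hnrnpa1 and Dlk1. Mest stood at 540, 333, 134 and 28.9 CPM across the bins, Plagl1 at 469, 342, 204 and 72.3, Cdkn1c at 627, 289, 151 and 44.4, and Dlk1 at 273, 85.0, 39.3 and 15.5. Mest, Plagl1, Cdkn1c and Dlk1 are imprinted genes with known roles in fetal growth, and they were grouped here after their values were seen. Npm1 encodes the nucleolar protein nucleophosmin and stood at 2948, 2478, 2049 and 1460 CPM. The same signs held in cycling Pax7-positive cells, at r = 0.56 for Fth1 and r = -0.54 for Mest over 1353 cells. In Dcn-positive cells r was 0.23 for Fth1 and -0.02 for Mest over 319 cells. There it was also near 0 for S100a6 (-0.02) and Col6a1 (-0.07). For Hmga2 and Fabp5 it was 0.51 and -0.49 there, close to the 0.58 and -0.50 of resting cells. Some leading genes thus ran with Spp1 in Dcn-positive cells too, and others did not. These correlations are across cells of 1 library that share depth and free RNA, and are given as descriptions.

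Satellite cell genes also differed along the bins. Pax7, a gene of the rule, stood at 225, 197, 175 and 160 CPM. Myf5 stood at 100, 75.8, 48.6 and 34.1 CPM and Myod1 at 111, 88.1, 71.3 and 51.7 CPM, so both were lowest where Spp1 was highest. Apoe stood at 304, 214, 162 and 237 CPM, with no single direction, and Cd28 at 32.8, 27.7, 42.4 and 4.13 CPM. Cxcr4 stood at 13.3, 12.3, 6.20 and 2.07 CPM, Heyl at 52.3, 70.7, 49.6 and 26.9, and Barx2 at 14.3, 48.2, 50.6 and 27.9. The list of progenitor transcription factors summed to 367, 294, 258 and 204 CPM. The surface and quiescence list went the other way, at 1982, 2256, 2433 and 2447 CPM. The Notch list stood at 406, 551, 525 and 553 CPM, so satellite cell genes had no single direction along Spp1. Fibroblast markers summed to 1333, 1924, 2415 and 3303 CPM and the sarcomere list to 3393, 3188, 2604 and 2277 CPM. Lum had 0 UMIs in the lower 3 bins, and Col1a1 stood at 9.22, 24.6, 36.2 and 37.2 CPM. The part of fibroblast RNA in the order along Spp1 was not tested.

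**Figure D4:**
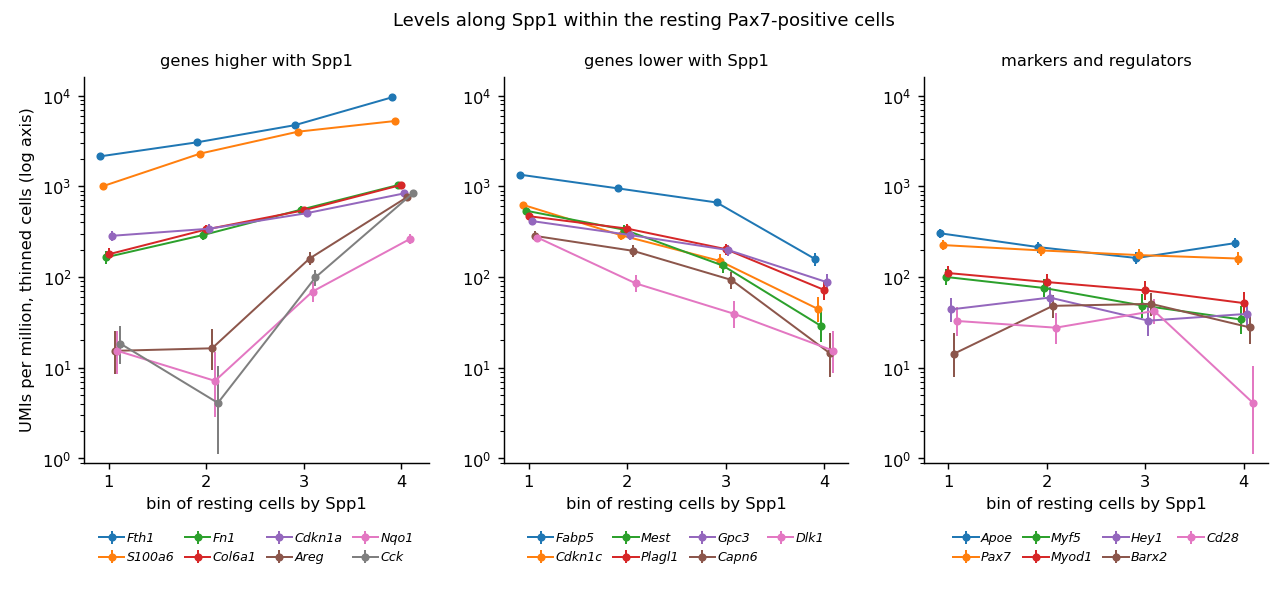
CPM after thinning (log axis, exact Poisson 95% intervals) in bins of the 486 resting cells ordered by Spp1. Genes on the left are higher and genes in the middle lower toward the highest bin, as with Fth1 from 2140 to 9618 CPM and Mest from 540 to 28.9 CPM, while Pax7 on the right runs from 225 to 160 CPM.

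Cck marked a few cells. It was seen in 10.7% of thinned resting cells, and 24 cells with at least 5 UMIs stood at 4609 CPM against 12.7 CPM in the other 462. Those 24 cells also held more Spp1 (16500 against 3158 CPM), Areg (1396 against 177), Gsta4 (552 against 52.5) and Crabp1 (552 against 83.3), and fewer Fabp5 transcripts (67.7 against 818). Barx2 and Cd28 had 0 UMIs in them, with upper limits of 19.2 CPM that are below the 37.1 CPM of Barx2 and the 28.1 CPM of Cd28 in the rest. Pax7 was at 214 against 188 CPM. This group was chosen after its values were seen. Of all Cck UMIs in resting cells 99.7% lay in 49 cells, so the pooled level of Cck describes few of them.

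Pooled levels in cells just inside and just outside the limits of the rule were close at some limits and apart at others. The 259 cells with exactly 2 UMIs of Pax7 stood at 210 CPM of Apoe and 42.6 of Heyl, and the 419 cells with 1 UMI that met every other limit stood at 223 and 34.5 CPM. Just outside the Top2a limit, 59 cells with 1 UMI stood at 170 CPM of Apoe. The 18 cells with an S-phase sum of 3 stood at 229 CPM of Apoe (181 to 287), and 13 cells with a sum of 4 at 93.9 CPM (57.4 to 145). Just inside the G2/M limit, 12 cells with a sum of 2 stood at 94.7 CPM of Apoe, and 5 cells with a sum of 3 at 104. The 12 cells with 2 UMIs of Dcn stood at 70.0 CPM of Apoe and 5.0 of Myf5, and the 21 cells with 1 UMI at 171 and 44.1. Apoe varied widely among the resting cells, with a variance of 10.1 times its mean and up to 55 UMIs per cell before thinning. Its pooled level in the small bins can thus rest on few cells, and whether cells differ across a limit was not tested.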

How the data were processed

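Per the submitters' processing notes, reads were handled with Cell Ranger 4.0 and Seurat 3.2.3 on GRCm38.p6. The authors deposited raw UMI counts per gene and barcode for both libraries, and the iMPC matrix held unfiltered barcodes. Cells were filtered to just over 8000 UMIs or more (iMPC), 500 genes and at most 20% mitochondrial UMIs. Filtered counts were summed per set and divided by the set's total to give CPM, and for shares each cell was thinned to 8000 UMIs. Intervals are exact 95% Poisson, binomial or conditional intervals, and they cover counting error only. With 1 library per group no test was made. A gene was called past 2-fold with at least 50 CPM (lists: 10 CPM) in the higher set, leaving out the 16 genes of the rule. The text names the 12 genes (first comparison) or 8 genes (others) with the largest ratios in each direction, up to 4 of each list in each direction, 9 regulators such as Myf5 and Hes1, and the 12 genes with the highest variance over mean, skipping Gm, Rik, mitochondrial and ribosomal protein genes. Any other gene was named after its values were seen. A few genes that this rule covers are not reported here. The members and lists were chosen with earlier results of these data known. Doublets were marked with Scrublet and kept. Of 26100 gene IDs, 25989 were in GENCODE M21, which gave coordinates, and promoters came from RefSeq. The counting was tested on simulated data. Python 3.11.15, numpy 2.4.6, scipy 1.17.1, pandas 2.3.3 and scanpy 1.11.5 were used. Other weightings, scalings, thresholds and limits of the rule were tried as alternatives.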

Additional observations from a re-analysis of the deposited data

Results flagged for a closer look

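Barcodes below the depth limit were used in no comparison. Among 2898 iMPC barcodes from 1000 UMIs up to that limit, 11 met every other limit of the rule, with a median of 5421 UMIs, and 0 of 612 such MEF barcodes did. Summed over the 11, Apoe stood at 252 CPM against 206 CPM in the resting cells and Cdkn1a at 521 against 495 CPM, while Pax7, a gene of the rule, stood at 431 CPM. Myod1 and Cxcr4 had 0 UMIs in them.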

How the results depend on the processing

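No gene ratio or list median of at least 2-fold in the main run changed direction under any alternative run. Smaller ones were not checked for a change of direction. Of the values that answer a comparison, 95 stayed within the margin and 42 did not. For single genes the numbers were 1305 and 333, and for list medians 837 and 151. Settings that change only the minimum level (10 CPM, or no minimum but 10 UMIs) could not move single genes or list medians. Each of these settings gave 202 of the values that stayed. Genes higher in resting than in all other iMPC cells numbered 104, and 24 with every cell weighted equally (23 shared), 22 with cells thinned to 8000 UMIs (20 shared) and 217 without mitochondrial and ribosomal protein genes in the totals. That last choice gave 168, 1059 and 240 higher genes against cycling, Myog-positive and Dcn-positive cells. With a minimum of 10 CPM, higher and lower genes numbered 303 and 691 against all other cells, 304 and 541 against cycling, 1882 and 1010 against Myog-positive and 402 and 826 against Dcn-positive cells. With no minimum but 10 UMIs they numbered 2429 and 1698, 1048 and 1177, 4256 and 1956, and 957 and 1655. Before scaling by the median of gene ratios, which sets it to 0, the median log2 ratio of genes from 50 CPM was -0.12 against cycling and 0.12 against Myog-positive cells. The number of resting cells was 297 with the rule applied after thinning (236 shared), 227 with Pax7 of at least 3 UMIs and 905 with at least 1. With both cell cycle sums at 0, an alternative chosen after seeing the data, it was 278, and 159 genes were higher than in all other cells. Thinned to 4000 UMIs, not thinned, and with at least 2 UMIs required, the share of resting cells was 3.29, 10.5 and 0.412% for Cxcr4, 17.7, 44.7 and 8.02% for Heyl, 8.85, 20.6 and 4.53% for Cd28, 38.7, 60.7 and 31.1% for Apoe, and 9.26, 22.0 and 5.97% for Barx2. The cause of these shifts was not tested beyond what each setting changes by construction. No paired analysis was possible because each group is 1 library and the results come from no test. Depth limits the sparse markers, such as Cxcr4 with 61 UMIs in the 486 cells.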

Other observations

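Sox9, a transcription factor known from cartilage, stood at 96.7 CPM in resting cells and gave nearly all of the 97.2 CPM of the chondrocyte list, whose members Acan, Col2a1 and Col9a1 had 0 UMIs. Gal, which encodes the neuropeptide galanin, was seen in 17.9% of thinned resting cells, and 88.3% of its UMIs lay in 49 of the 486 cells. It stood at 333 CPM in the 24 cells with at least 5 UMIs of Cck and at 87.1 CPM in the other 462.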
